A study of Homo sapiens with 24 samples.

Results

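Genes of homologous recombination and of the Fanconi anaemia pathway were followed as a set of 33, each found by its symbol in 1 of the 30373 rows of an expression table made from poly-A RNA sequencing of cultured human cells. The table covers 24 libraries in 12 groups, with 2 libraries in each. Every line was kept for 24 h with ABBV-075 at 100 nM, with ABBV-744 at 200 nM or with DMSO, the solvent used as control. Acute myeloid leukaemia (AML) was the source of SKM-1, MV-4-11, which is known for a KMT2A fusion, and Kasumi-1, which is known for a RUNX1-RUNX1T1 fusion. The lung line NCI-H1299 comes from a non-small cell cancer. Both compounds block bromodomains of the BET proteins, which read acetylated histones at active genes. ABBV-075 binds both bromodomains, and ABBV-744 prefers the second. Their doses differ, so any comparison between them holds only at these doses, and both were set against the same DMSO libraries. The labels do not say whether libraries of a group came from separate cultures, so the spread behind each p-value may be technical. That spread was pooled over all 12 groups, so it does not measure the spread of the groups compared.

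Homologous recombination mends a broken chromosome by copying the intact sister chromatid. The MRE11A, RAD50 and NBN complex holds the broken ends, RBBP8, EXO1 and BLM trim them to single strands, BRCA1, PALB2 and BRCA2 prepare those strands for pairing, and RAD51C, XRCC2, XRCC3 and the RAD54 proteins help them pair with the sister. The Fanconi pathway frees replication forks from crosslinks between DNA strands: a core complex attaches ubiquitin to FANCD2 and FANCI, and recombination then repairs the cut strand. These genes are known as cell cycle genes with most of their use in S phase and G2, and many are described as targets of E2F factors.

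Values are FPKM (fragments per kilobase of transcript, scaled to library size, so a level per length) as deposited, and changes are differences of log2(FPKM + 1), which understate the change of genes with low values. A gene was called higher or lower at an adjusted p under 0.05 in limma, with Benjamini-Hochberg adjustment over all tested rows of that comparison. Errors after ± are limma's standard errors of the quantity they follow, which is a log2 difference between groups of 2 libraries, its mean over the 3 leukaemia lines, or a difference between 2 such changes. FPKM sums ran from 543426 to 719215 per library, and the depth in reads is unknown. The libraries labelled SKM-1 DMSO stood apart from each other. They had the largest spread of any pair (SD of the log2 difference 0.63, against 0.16 to 0.47 in the other pairs), and replicate 2 held 22.3% of its FPKM in mitochondrial transcripts, against 9.13% in replicate 1. Because the errors after ± use a spread pooled over all 12 groups, errors and p-values in SKM-1 may be too small. Calls in SKM-1 were recomputed without each of these libraries. In DMSO, CD33, PTPRC and SPI1 averaged 21.1 to 133.8 FPKM in the 3 leukaemia lines and at most 0.0803 FPKM in NCI-H1299, which held KRT8 at 154.6 FPKM. RUNX1T1 was at 31.2 FPKM in Kasumi-1 and at most 0.402 FPKM in the other lines. MS4A1 and HBB, markers of B cells and red cells, were listed at 0 in every library. HEXIM1, a gene known to rise with BET inhibition, was called higher with both compounds in all 4 lines, by 1.93 to 2.97 with ABBV-075 and by 0.61 to 1.01 with ABBV-744. With ABBV-075 MYC fell by far in SKM-1 (-5.80) and Kasumi-1 (-3.06), by less in MV-4-11 (-1.15), and was at -0.31 in NCI-H1299, not called. SERPINI1 rose with ABBV-075 in all 4 lines, by 1.92 to 4.02. With ABBV-744 SERPINI1 rose in MV-4-11 (1.35) and Kasumi-1 (2.06) and was not called in SKM-1 (0.41) or NCI-H1299 (0.36). MYC with ABBV-744 fell in SKM-1 (-0.85) and Kasumi-1 (-1.02) and was not called in MV-4-11 (-0.44) or NCI-H1299 (0.02).

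Most of the repair genes were lower with ABBV-075. In SKM-1, 30 of 33 were called lower and 0 higher, with a median change of -1.0, while 29.2% of all tested rows were called lower and 32% higher around a median of 0.05. The SKM-1 count lower was 28 without either DMSO library, and RAD50, NBN, ATR, FANCE, FANCG and FANCM lost the call without some single library. In MV-4-11, 22 were lower and 1 higher (median -0.71), with 22.1% of all tested rows lower and 20.3% higher around -0.01. In NCI-H1299, 22 of 32 tested were lower and 1 higher (median -0.70), with 26.5% of all tested rows lower and 20.6% higher around -0.06. In Kasumi-1 the set was nearer to the background, with 13 lower and 2 higher (median -0.30, or -0.15 after quantile normalisation and -0.20 after median of ratios scaling), while 32.6% of all tested rows were lower and 24.7% higher around -0.09. Averaged over the 3 leukaemia lines (called the AML mean) 30 were lower and 0 higher (median -0.63), with 34.4% of all tested rows lower and 33.5% higher around -0.00. Bulk libraries cannot tell fewer cells of a type from less RNA per cell. Most S phase genes were lower too, as given below, and the part of cell cycle phase was not tested. Changes of -1 or lower on the log2(FPKM + 1) scale numbered 16 in SKM-1, 10 in MV-4-11, 2 in Kasumi-1 and 10 in NCI-H1299. Many other rows fell as far: the 0.05 quantile of all tested rows was -1.72, -1.21, -1.64 and -1.19 in these lines. The exact share of all rows at this cut-off was not computed, so none of these counts is a result about the set. No member was higher with ABBV-075 in SKM-1 even at an unadjusted p under 0.05 (0 genes). FANCF was below 1 FPKM in all 6 NCI-H1299 libraries (0.205 to 0.451 FPKM) and was not tested there.

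**Figure D1:**
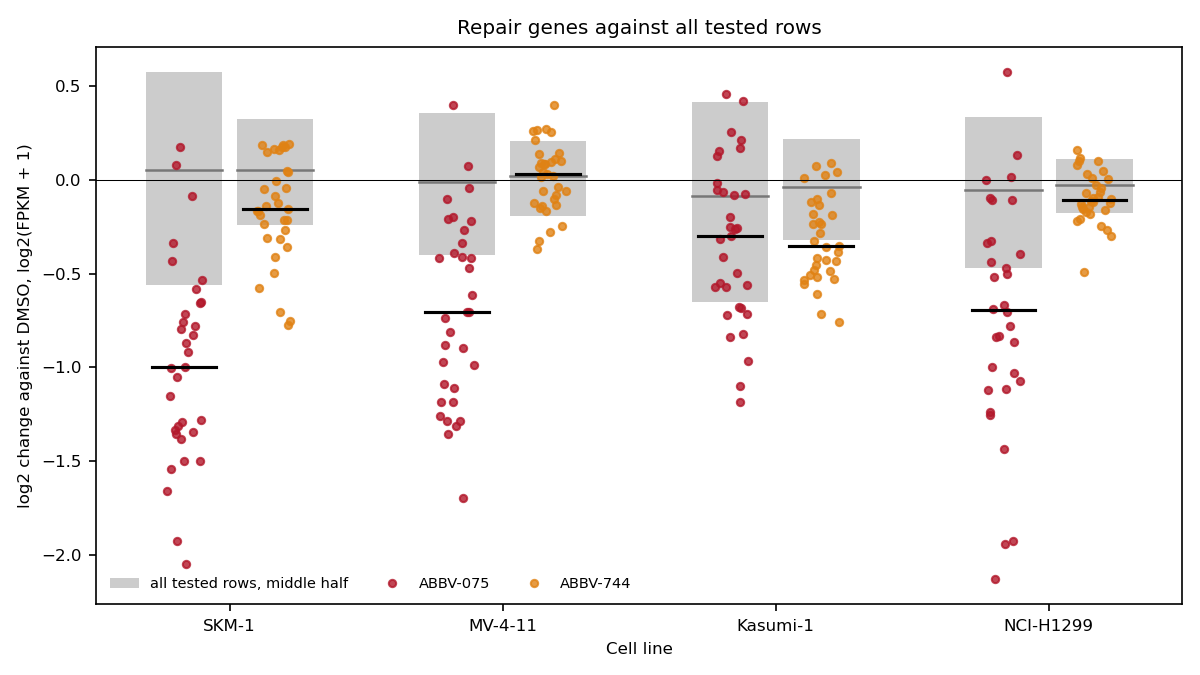
Each point is the log2 change of 1 repair gene against DMSO (y axis, log2(FPKM + 1)) by line (x axis), with ABBV-075 in red and ABBV-744 in orange. Black bars are medians of the repair genes, grey bars medians of all tested rows and grey boxes their middle 50%. With ABBV-075 the repair genes' median lies at -1.0 in SKM-1, -0.71 in MV-4-11, -0.30 in Kasumi-1 and -0.70 in NCI-H1299, and with ABBV-744 between -0.35 and 0.03.

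With ABBV-744 the set moved less. The calls were 6 lower in SKM-1 (median -0.16, or -0.30 with equal sums without mitochondrial transcripts, with 12.5% of all tested rows lower and 14.9% higher), 10 lower in Kasumi-1 (median -0.35, with 15% lower and 8.69% higher) and 1 lower in NCI-H1299 (median -0.11, with 3.95% lower and 1.4% higher). In MV-4-11 limma called 0 of 33 (median 0.03, or 0.13 with equal sums without mitochondrial transcripts, with 6.75% of all tested rows lower and 4.61% higher), and 2 genes were lower and 2 higher at an unadjusted p under 0.05. No member was called higher with ABBV-744 in any line, and at an unadjusted p under 0.05 the number higher was 0 in SKM-1, Kasumi-1 and NCI-H1299. In the AML mean, 12 were called lower and 0 higher (median -0.11), with 17.3% of all tested rows lower and 18.2% higher. With the libraries of 1 line alone in the fit, the count lower was 0 in SKM-1 and 2 in Kasumi-1. Each of the 6 SKM-1 calls (BRCA2, NBN, XRCC2, FANCD2, MSH6 and PARP1) ended without some single library, and the count was 10 without DMSO replicate 1, 3 without DMSO replicate 2, and 1 and 0 without ABBV-744 replicates 1 and 2. In Kasumi-1 the calls of EXO1, ATR, CHEK1, CHEK2 and FANCC ended without some single library, and the count was 5 without ABBV-744 replicate 2. In the AML mean those of BRCA1, RAD50, EXO1, CHEK1 and FANCA ended so, and the count was 7 without MV-4-11 DMSO replicate 1.

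Taken by line, 9 genes were called lower with ABBV-075 in all 4 lines: BRCA1, PALB2, XRCC2, RAD54L, CHEK1, CHEK2, FANCA, FANCC and FANCD2. A further 11 were lower in 3 lines, 6 in 2 lines, 6 in 1 line, and ATM in none. Of all tested rows 29.2% were called lower in SKM-1, 22.1% in MV-4-11, 32.6% in Kasumi-1 and 26.5% in NCI-H1299. The share of all rows lower in several lines at once was not computed, so these counts cannot be set against a background. The 4 members called higher in 1 line were PARP1 in MV-4-11, FANCL and FANCM in Kasumi-1 and ATM in NCI-H1299. Of the 9, FANCC was no longer called in NCI-H1299 without DMSO replicate 1 (adjusted p = 0.0707) or without ABBV-075 replicate 2 (adjusted p = 0.0686), and the other 8 kept every call whichever single library was left out.

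**Figure D2:**
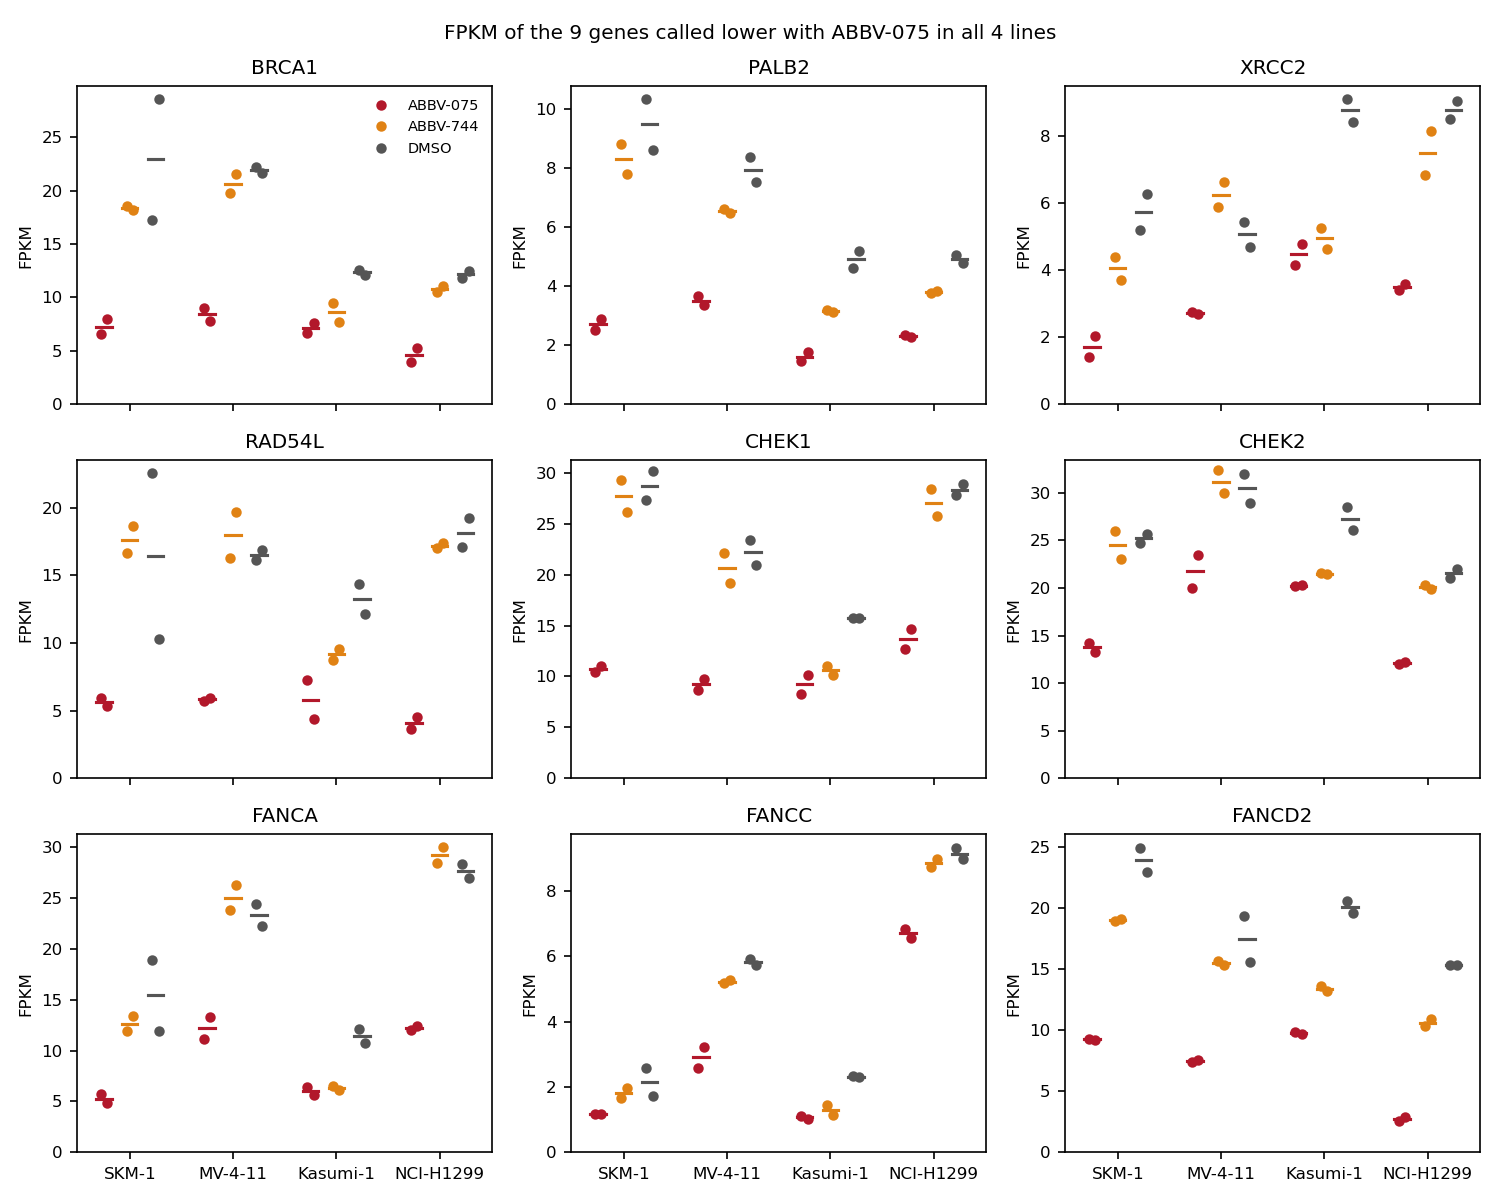
Each panel shows 1 of the 9 genes called lower with ABBV-075 in all 4 lines. Points are single libraries and bars group means in FPKM (y axis, from 0), by line (x axis), with ABBV-075 left in red, ABBV-744 in orange and DMSO right in grey. The ABBV-075 points lie below both DMSO points of the same line in every panel, which follows in part from picking genes called lower. Of all tested rows, 32.4% lay so in SKM-1, 39.5% in MV-4-11, 40.1% in Kasumi-1 and 46.6% in NCI-H1299. The DMSO points of SKM-1 are far apart for RAD54L (22.6 and 10.3 FPKM) and BRCA1 (17.3 and 28.6 FPKM).

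The members' promoters were also read for 4 short motifs. RefSeq promoter windows on GRCh38.p14, 300 bases each (250 before and 50 after the gene start), were at hand for 30 members in 42 windows, with none for FANCI, NBN and RAD54B. An E2F motif (TTTGGCGC, TTTCCCGC, TTTGCCGC or TTTCGCGC, on either strand) was found in 6 of the 42 windows (14.3%) and in 3.31% of all 35116 windows. CCAAT was in 45.2% of the members' windows against 34.6% of all, the cell cycle homology region (CHR, TTTGAA or TTCGAA) in 7.14% against 16.4%, and the E-box CACGTG in 7.14% against 7.26%. All 4 motifs were read on both strands, and none of these letter strings contains another. The 6 genes with an E2F match were FANCD2, FANCA, XRCC2 and FANCC, all called lower with ABBV-075 in 4 lines, and EXO1 and MSH6, called lower in 3. Among members with a window, E2F was thus in 4 of 9 lower in 4 lines and 2 of 9 lower in 3. CCAAT was in 6 of 9 of each. Most members of both groups, among them RAD54L, PALB2 and BRCA1, had no E2F match, and a link of motif to response was not tested. These shares are descriptions of letters in short windows and show no binding. The windows of the first 4 follow, 5′ to 3′, with the E2F matches in capitals, for FANCD2 at chr3:10026187-10026486 (plus strand), FANCA at chr16:89816598-89816897 (minus strand), XRCC2 at chr7:152676092-152676391 (minus strand) and FANCC at chr9:95317660-95317959 (minus strand).
FANCD2: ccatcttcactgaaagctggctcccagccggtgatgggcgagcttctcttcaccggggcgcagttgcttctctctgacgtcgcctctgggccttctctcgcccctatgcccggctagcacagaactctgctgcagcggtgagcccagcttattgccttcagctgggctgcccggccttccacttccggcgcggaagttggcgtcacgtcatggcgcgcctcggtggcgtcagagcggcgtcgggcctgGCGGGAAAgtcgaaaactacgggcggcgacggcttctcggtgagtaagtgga
FANCA: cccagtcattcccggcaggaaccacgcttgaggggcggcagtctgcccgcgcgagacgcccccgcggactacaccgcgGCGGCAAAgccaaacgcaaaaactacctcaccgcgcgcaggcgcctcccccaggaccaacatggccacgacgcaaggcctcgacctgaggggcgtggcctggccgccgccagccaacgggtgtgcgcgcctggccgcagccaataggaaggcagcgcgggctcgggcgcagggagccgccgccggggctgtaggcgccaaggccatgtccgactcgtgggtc
XRCC2: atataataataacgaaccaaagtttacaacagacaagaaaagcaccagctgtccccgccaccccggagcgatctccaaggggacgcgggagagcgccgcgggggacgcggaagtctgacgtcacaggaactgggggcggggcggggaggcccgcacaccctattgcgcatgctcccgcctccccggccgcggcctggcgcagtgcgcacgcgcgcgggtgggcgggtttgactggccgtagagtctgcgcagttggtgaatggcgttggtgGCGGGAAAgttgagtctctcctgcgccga
FANCC: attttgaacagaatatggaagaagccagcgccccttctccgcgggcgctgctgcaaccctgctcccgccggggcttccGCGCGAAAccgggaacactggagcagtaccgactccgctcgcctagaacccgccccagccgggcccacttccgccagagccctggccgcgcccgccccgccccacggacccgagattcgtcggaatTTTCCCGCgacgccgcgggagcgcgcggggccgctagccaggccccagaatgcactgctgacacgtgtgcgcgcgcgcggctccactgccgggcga
FANCD2 and XRCC2 hold the same GCGGGAAA close to the gene start, and FANCC holds 2 matches on opposite strands.

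The BRCA group holds BRCA1 and its partner BARD1, which form a ubiquitin ligase at breaks, PALB2, which bridges BRCA1 to BRCA2, BRCA2, which acts on the trimmed strands, and the helicase BRIP1. All 5 were called lower with ABBV-075 in SKM-1, 3 in MV-4-11, 2 in Kasumi-1 and 4 in NCI-H1299. The shares of all tested rows called lower were 29.2%, 22.1%, 32.6% and 26.5% in these lines, so the Kasumi-1 count is near the background. PALB2 had 2.53 and 2.87 FPKM with ABBV-075, 8.8 and 7.81 with ABBV-744 and 10.3 and 8.61 with DMSO in SKM-1. The Kasumi-1 values were 1.44 and 1.76 FPKM with ABBV-075, 3.18 and 3.12 with ABBV-744 and 4.62 and 5.18 with DMSO. The groups do not overlap in Kasumi-1, where it was called lower with both compounds (-1.18 with ABBV-075 and -0.51 with ABBV-744, adjusted p = 1.42e-07 and 0.0024 in limma). Its change with ABBV-075 was -1.50 ± 0.10, adjusted p = 7e-09 in SKM-1, -0.99 ± 0.10, adjusted p = 1.59e-06 in MV-4-11 and -0.84 ± 0.10, adjusted p = 8.89e-06 in NCI-H1299.

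BRCA1 in MV-4-11 had 9.03 and 7.82 FPKM with ABBV-075, 19.8 and 21.5 with ABBV-744 and 22.2 and 21.7 with DMSO, so its ABBV-744 libraries lay just below DMSO while the ABBV-075 libraries lay far below. Its changes with ABBV-075 ran from -1.50 ± 0.18 in SKM-1 to -0.72 ± 0.18 in Kasumi-1 (adjusted p = 2.95e-06 and 0.00288). BRIP1 fell in SKM-1, MV-4-11 and NCI-H1299 (-1.05, -1.09 and -0.86) and was not called in Kasumi-1, where it had 8.13 and 9.46 FPKM with ABBV-075, against 8.97 and 9.73 FPKM with DMSO, and BARD1 fell in SKM-1 (-0.66 ± 0.14) and NCI-H1299 (-0.69 ± 0.14). BRCA2 was called lower in SKM-1 alone, with 3.63 and 4.62 FPKM with ABBV-075, 7.27 and 8.38 with ABBV-744 and 8.85 and 21.4 with DMSO. The DMSO libraries of SKM-1 differ more than 2-fold for this gene: the change of -1.54 ± 0.25 became -0.95 without DMSO replicate 2 (adjusted p = 0.000215), and the ABBV-744 call (-0.75) ended without it (-0.16, adjusted p = 0.555). In the other lines BRCA2 was at 1.73 to 4.87 FPKM in every library and was not called.

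Among the genes that sense and trim broken ends, all 6 were called lower with ABBV-075 in SKM-1, 4 in MV-4-11, 3 in NCI-H1299 and 0 in Kasumi-1. Of all tested rows, 29.2%, 22.1%, 26.5% and 32.6% were lower in these lines. EXO1, the exonuclease of long-range trimming, had 7.0 and 7.54 FPKM with ABBV-075, 23.5 and 22.3 with ABBV-744 and 28.4 and 22.2 with DMSO in SKM-1. In Kasumi-1 it had 5.64 and 6.08 FPKM with ABBV-075, against 6.83 and 6.92 FPKM with DMSO. The gap is wide in SKM-1 and narrow in Kasumi-1. The change was -1.66 ± 0.12, adjusted p = 6.96e-09 in SKM-1 and -1.26 ± 0.12, adjusted p = 3.49e-07 in MV-4-11. The Kasumi-1 change of -0.20 was not called (adjusted p = 0.152). MRE11A, the nuclease of the end-holding complex, had 13.8 and 12.1 FPKM with ABBV-075, 37.2 and 37.1 with ABBV-744 and 35.6 and 31.7 with DMSO in MV-4-11, with both ABBV-075 libraries far below the other 4. Its change was -1.38 ± 0.18 in SKM-1, -1.32 ± 0.18 in MV-4-11 and -0.50 ± 0.18 in NCI-H1299, and the last of these calls ended without any 1 of the 4 ABBV-075 and DMSO libraries of that line (adjusted p = 0.0842 to 0.127).

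RBBP8, which starts the trimming, had 6.25 and 8.26 FPKM with ABBV-075, 20 and 17.7 with ABBV-744 and 21.1 and 51.1 with DMSO in SKM-1. Its change in that line was -2.05 ± 0.28, adjusted p = 1.28e-05, and its DMSO libraries are more than 2-fold apart. BLM, a helicase that also dissolves recombination intermediates, fell in SKM-1 (-1.35), MV-4-11 (-0.90) and NCI-H1299 (-1.03), with limma adjusted p = 1.28e-06, 0.000162 and 4.01e-05. RAD50 and NBN, the partners of MRE11A, were called lower in SKM-1 only (-0.58 and -0.80). Both calls ended without SKM-1 DMSO replicate 2, and the changes were then -0.05 and -0.42. RAD50 had 35.2 FPKM in that library, against 16.2 FPKM in replicate 1. The RAD50 call also ended without either ABBV-075 or either ABBV-744 library of SKM-1, and the NBN call without ABBV-075 replicate 1. RAD50 shares 90.6% of its exonic bases with AC116366.3 on the same strand in GENCODE v29, so its row is uncertain where counting split those reads.

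All 6 strand exchange genes were called lower with ABBV-075 in SKM-1 and in NCI-H1299, 5 in MV-4-11 and 3 in Kasumi-1. Of all tested rows, 29.2%, 26.5%, 22.1% and 32.6% were lower in these lines. RAD51AP1, a cofactor of strand pairing, had 11.3 and 10.6 FPKM with ABBV-075, 41.9 and 38.2 with ABBV-744 and 44.5 and 45.8 with DMSO in NCI-H1299. In MV-4-11 it had 11.6 and 9.93 FPKM with ABBV-075, 40 and 32.6 with ABBV-744 and 41.6 and 33 with DMSO. The Kasumi-1 libraries had 11.4 and 14.4 FPKM with ABBV-075, 12.4 and 11.1 with ABBV-744 and 11.7 and 15.5 with DMSO. The ABBV-075 libraries lie far below the others in the first 2 of these lines and inside the DMSO range in Kasumi-1, apart from 1 library just under it. The change was -1.94 ± 0.23, adjusted p = 5.6e-06 in NCI-H1299, -1.92 ± 0.23, adjusted p = 3.29e-06 in SKM-1 and -0.07 in Kasumi-1 (adjusted p = 0.825).

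RAD54L, a motor protein that works on DNA during strand pairing, had 3.61 and 4.5 FPKM with ABBV-075, 17 and 17.4 with ABBV-744 and 17.1 and 19.2 with DMSO in NCI-H1299. The ABBV-075 libraries lie far below the other 4. The change was -1.92 ± 0.25, adjusted p = 1.48e-05 there and -1.10 ± 0.25, adjusted p = 0.00157 in Kasumi-1. In SKM-1 its change of -1.29 became -0.76 without DMSO replicate 1 (adjusted p = 0.00383), with 22.6 and 10.3 FPKM in the DMSO libraries. XRCC2, which acts in strand exchange, had 4.15 and 4.78 FPKM with ABBV-075, 5.26 and 4.63 with ABBV-744 and 9.1 and 8.42 with DMSO in Kasumi-1, where both compounds took it below DMSO (-0.84 ± 0.13 with ABBV-075 and -0.72 ± 0.13 with ABBV-744, adjusted p = 6.05e-05 and 0.00108). Of RAD51C and XRCC3, which form a complex, RAD51C fell in SKM-1, MV-4-11 and NCI-H1299 (-1.0, -0.61 and -0.52) and XRCC3 in SKM-1, Kasumi-1 and NCI-H1299 (-0.78, -0.68 and -1.08). The Kasumi-1 call of XRCC3 ended without DMSO replicate 1 (-0.57, adjusted p = 0.0701) or without ABBV-075 replicate 2 (-0.38, adjusted p = 0.142). RAD54B, the second RAD54 motor, fell in the 3 lines other than Kasumi-1 (-1.0, -0.71 and -0.67). Its MV-4-11 call ended without DMSO replicate 1 (adjusted p = 0.0776) or ABBV-075 replicate 2 (adjusted p = 0.0689). XRCC3 shares 45.3% of its exonic bases with KLC1 on the other strand and RAD54B 63.3% with FSBP on the same strand. RAD54L shares 18% with LRRC41, FANCA 22.4% with ZNF276 and MSH6 21% with FBXO11, all on the other strand. The sources used here do not say whether counting used strand.

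Of the checkpoint kinases, the effector kinases CHEK1 and CHEK2 fell in all 4 lines with ABBV-075, while of the apical kinases ATR fell in SKM-1 and Kasumi-1 and ATM in none. CHEK1 had 8.71 and 9.71 FPKM with ABBV-075, 22.1 and 19.2 with ABBV-744 and 23.4 and 20.9 with DMSO in MV-4-11. In Kasumi-1 it had 8.26 and 10.2 FPKM with ABBV-075, 11.1 and 10.2 with ABBV-744 and 15.8 and 15.8 with DMSO. In MV-4-11 only ABBV-075 separates from DMSO, and in Kasumi-1 both compounds do. Its changes with ABBV-075 were -1.33 ± 0.12 in SKM-1, -1.18 ± 0.12 in MV-4-11, -0.72 ± 0.12 in Kasumi-1 and -1.0 ± 0.12 in NCI-H1299, with limma adjusted p = 1.49e-07, 1.19e-06, 0.000115 and 6.86e-06. CHEK2 fell by less, from -0.83 in SKM-1 to -0.41 in Kasumi-1. ATM had 15 and 16.5 FPKM with ABBV-075, 11.2 and 11.2 with ABBV-744 and 10.4 and 10.2 with DMSO in NCI-H1299, the one call of a rise (0.57 ± 0.15, adjusted p = 0.00634), which ended without ABBV-075 replicate 2 (0.51, adjusted p = 0.0548). In the leukaemia lines ATM changed by -0.10 to 0.17 and was not called. ATR had 4.31 and 4.83 FPKM with ABBV-075, 5.43 and 4.74 with ABBV-744 and 6.69 and 7.73 with DMSO in Kasumi-1, below DMSO with both compounds (-0.56 with ABBV-075 and -0.43 with ABBV-744). The ABBV-744 call ended without DMSO replicate 2 (adjusted p = 0.122) or ABBV-744 replicate 2 (adjusted p = 0.113). It was also called in SKM-1 (-0.34), a call that ended without DMSO replicate 1 (adjusted p = 0.0726) or ABBV-075 replicate 1 (adjusted p = 0.172), and in NCI-H1299 it had 9.73 and 10.5 FPKM with ABBV-075, against 10.2 and 10 FPKM with DMSO.

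The Fanconi core complex was split. FANCA and FANCC, 2 of its subunits, fell with ABBV-075 in all 4 lines. FANCA had 12 and 12.4 FPKM with ABBV-075, 28.4 and 30 with ABBV-744 and 28.3 and 26.9 with DMSO in NCI-H1299. Kasumi-1 held FANCA at 6.38 and 5.64 FPKM with ABBV-075, 6.49 and 6.16 with ABBV-744 and 12.1 and 10.7 with DMSO. The ABBV-744 libraries lie above both DMSO libraries in NCI-H1299 and close to the ABBV-075 libraries in Kasumi-1. The changes were -1.12 ± 0.16, adjusted p = 3.52e-05 in NCI-H1299 with ABBV-075 and -0.76 ± 0.16, adjusted p = 0.00279 in Kasumi-1 with ABBV-744. FANCC had 1.11 and 1.03 FPKM with ABBV-075, 1.46 and 1.14 with ABBV-744 and 2.32 and 2.31 with DMSO in Kasumi-1 (-0.68 ± 0.12 with ABBV-075, adjusted p = 0.000165). In SKM-1 the change of FANCC was -0.53, and -0.34 without DMSO replicate 1 (adjusted p = 0.017). FANCG, a partner of FANCA, had 13.9 and 12.7 FPKM with ABBV-075, 32.9 and 33.2 with ABBV-744 and 38.3 and 37 with DMSO in NCI-H1299 and changed there by -1.43 ± 0.24, adjusted p = 0.000179. It was also lower in MV-4-11 (-1.18 ± 0.24). In SKM-1, where it had 19.3 and 8.66 FPKM in the DMSO libraries, the change of -0.87 was no longer called without DMSO replicate 1 (-0.34, adjusted p = 0.112).

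FANCE and FANCB fell in SKM-1 (-0.65 and -0.76), FANCE also in NCI-H1299 (-0.44, a call lost without any 1 of that line's ABBV-075 or DMSO libraries, adjusted p = 0.069 to 0.181). FANCE in SKM-1 was at -0.41 without DMSO replicate 1 (adjusted p = 0.042) and not called without ABBV-075 replicate 2 (-0.45, adjusted p = 0.0537). FANCF, an adaptor subunit, fell in MV-4-11 and Kasumi-1 (-0.73 and -0.57) and had 7.73 and 7.81 FPKM with ABBV-075, against 9.77 and 7.04 FPKM with DMSO in SKM-1, where it was not called. FANCL, the ubiquitin ligase of the complex, had 34.8 and 42.6 FPKM with ABBV-075, 32.5 and 27.8 with ABBV-744 and 26.7 and 30.4 with DMSO in Kasumi-1 and 13.7 and 14.1 FPKM with ABBV-075, 18.6 and 16 with ABBV-744 and 20.1 and 17.7 with DMSO in MV-4-11. It was called higher in Kasumi-1 (0.42 ± 0.13) and lower in MV-4-11 (-0.42 ± 0.13). FANCM, the helicase that anchors the complex on DNA, had 6.21 and 8.88 FPKM with ABBV-075, 6.33 and 4.84 with ABBV-744 and 5.2 and 5.08 with DMSO in Kasumi-1 and was called higher (0.46 ± 0.16) there and lower in SKM-1 (-0.43 ± 0.16). Each of these 4 calls ended without some single library. Without Kasumi-1 ABBV-075 replicate 2 the differences were 0.28 for FANCL and 0.23 for FANCM (adjusted p = 0.145 and 0.296), without SKM-1 DMSO replicate 2 that of FANCM was -0.27 (adjusted p = 0.223), and without MV-4-11 DMSO replicate 1 that of FANCL was -0.33 (adjusted p = 0.154). FANCL shares 26.7% of its exonic bases with VRK2 on the other strand.

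FANCD2 and FANCI are the pair that the core complex marks with ubiquitin. FANCD2 had 2.6 and 2.89 FPKM with ABBV-075, 10.4 and 10.9 with ABBV-744 and 15.4 and 15.4 with DMSO in NCI-H1299. In SKM-1 it had 9.27 and 9.21 FPKM with ABBV-075, 19 and 19.1 with ABBV-744 and 24.9 and 22.9 with DMSO. In Kasumi-1 it had 9.83 and 9.73 FPKM with ABBV-075, 13.6 and 13.2 with ABBV-744 and 20.6 and 19.6 with DMSO. No libraries overlap between treatments in these 3 lines, and ABBV-744 lies between ABBV-075 and DMSO in each. Its change with ABBV-075 was -2.13 ± 0.10, adjusted p = 1.74e-10 in NCI-H1299, and -1.28 ± 0.10, -1.11 ± 0.10 and -0.97 ± 0.10 in SKM-1, MV-4-11 and Kasumi-1. It was also the one member called lower with ABBV-744 in 3 lines: SKM-1 (-0.32 ± 0.10, adjusted p = 0.0263), Kasumi-1 (-0.55 ± 0.10, adjusted p = 0.000824) and NCI-H1299 (-0.49 ± 0.10, adjusted p = 0.00582). Of these, the NCI-H1299 call ended without DMSO replicate 1 or 2 or ABBV-744 replicate 1 (adjusted p = 0.0602 to 0.0692). The SKM-1 call ended without DMSO replicate 1 (-0.26, adjusted p = 0.067) or without either ABBV-744 library (adjusted p = 0.106 to 0.116). FANCI had 17.8 and 17.5 FPKM with ABBV-075, 38.1 and 37.9 with ABBV-744 and 37.5 and 33.8 with DMSO in MV-4-11. It fell with ABBV-075 in SKM-1, MV-4-11 and NCI-H1299 (-0.72, -0.97 and -1.25), and its change in Kasumi-1 was -0.26 (adjusted p = 0.0559).

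The last pair senses other lesions. MSH6, a mismatch recognition protein, fell with ABBV-075 in SKM-1 (-1.15 ± 0.13), MV-4-11 (-0.41 ± 0.13) and NCI-H1299 (-0.34 ± 0.13), and the calls in MV-4-11 and NCI-H1299 were lost without single libraries (adjusted p = 0.128 without MV-4-11 DMSO replicate 1 and 0.174 without NCI-H1299 ABBV-075 replicate 1). In Kasumi-1 it had 27.8 and 31.5 FPKM with ABBV-075, 23.9 and 21.9 with ABBV-744 and 36.4 and 34.6 with DMSO. There the ABBV-744 libraries are the lowest, and the change was called with ABBV-744 (-0.61 ± 0.13, adjusted p = 0.00236) and not with ABBV-075 (-0.26 ± 0.13, adjusted p = 0.0946). PARP1, which marks strand breaks with poly-ADP-ribose and is the target of PARP inhibitors, had the highest mean FPKM of the 33 genes in each of the 12 groups. It had 97.6 and 91.7 FPKM with ABBV-075, 140.3 and 149.6 with ABBV-744 and 175 and 184 with DMSO in SKM-1. In MV-4-11 it had 97.5 and 93.5 FPKM with ABBV-075, 84.9 and 88 with ABBV-744 and 70.3 and 74 with DMSO. ABBV-075 lies below DMSO in the first and above it in the second, with no overlap in either. The change was -0.92 ± 0.11, adjusted p = 1.99e-06 in SKM-1 and 0.40 ± 0.11, adjusted p = 0.00635 in MV-4-11. Without MV-4-11 DMSO replicate 1 or ABBV-075 replicate 1 the difference was 0.36 and 0.37 (adjusted p = 0.0536 and 0.0538). In Kasumi-1 it was called lower (-0.30), and not without ABBV-075 replicate 2 (-0.13, adjusted p = 0.336). In NCI-H1299 PARP1 was at 49.6 to 54.9 FPKM in all 6 libraries.

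**Figure D3:**
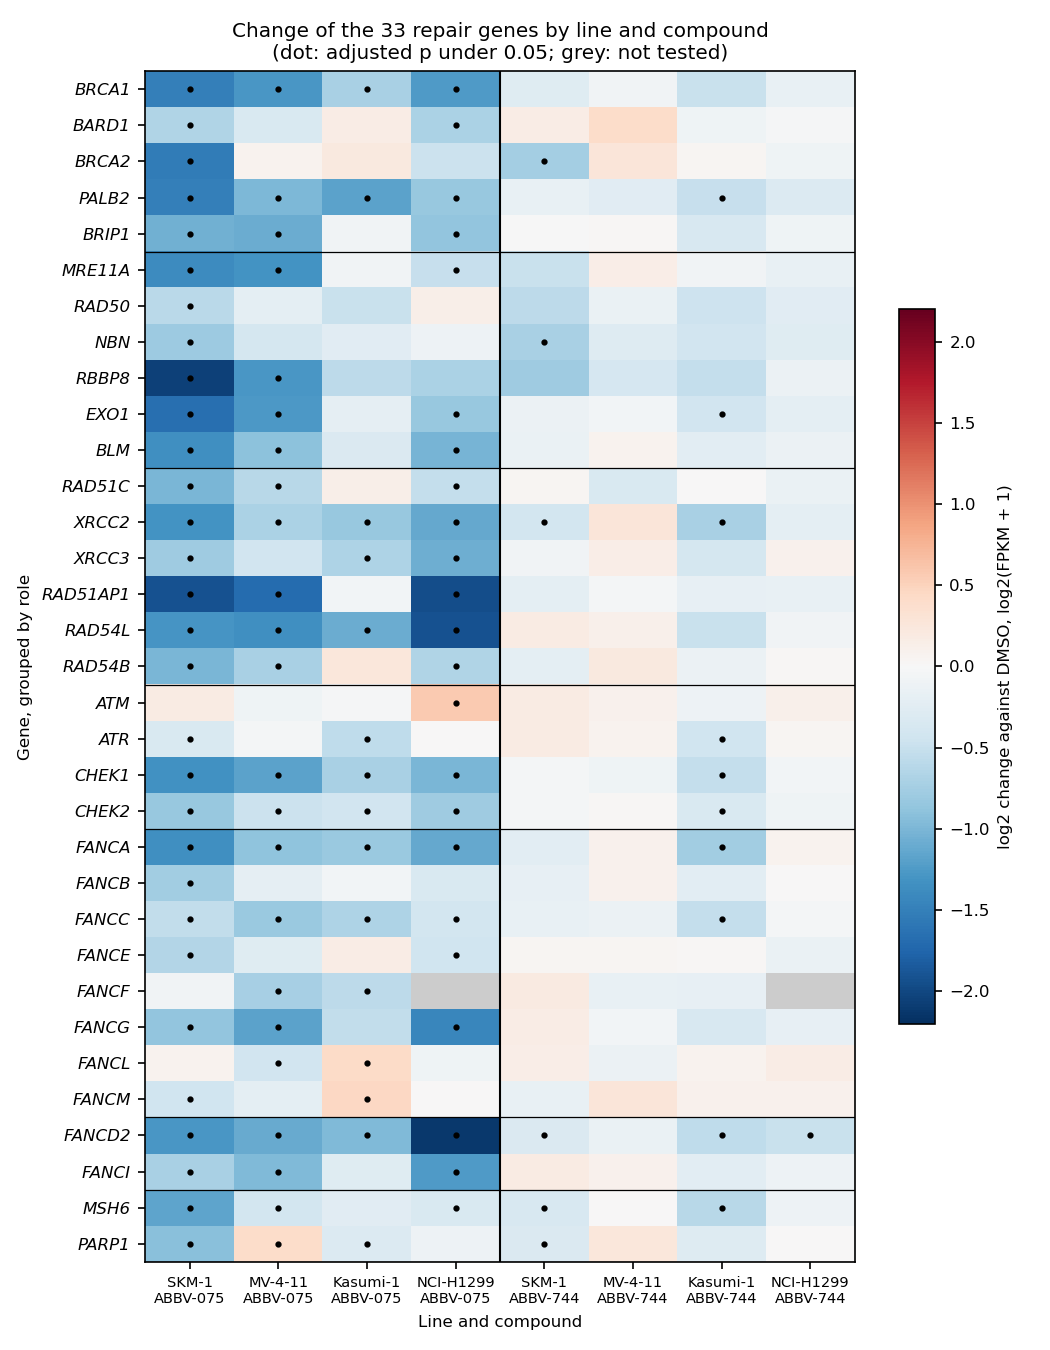
Colours give the log2 change against DMSO (log2(FPKM + 1), blue lower, red higher) of each of the 33 genes (rows, in role groups) by line, with ABBV-075 in the left 4 columns and ABBV-744 in the right 4. Dots mark an adjusted p under 0.05 and grey cells were not tested. The Kasumi-1 column of ABBV-075 holds 13 falls and 2 rises, against 30 falls in SKM-1, and the MV-4-11 column of ABBV-744 holds no dot.

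The compounds were also set against each other at their doses of 200 nM for ABBV-744 and 100 nM for ABBV-075. With ABBV-744, 27 members were higher and 0 lower than with ABBV-075 in SKM-1 (22.7% of all tested rows higher and 21% lower), 22 and 0 in MV-4-11 (12.5% higher and 9.44% lower), 19 and 1 in NCI-H1299 (18.6% higher and 16% lower) and 26 and 0 in the AML mean (28.1% higher and 23.7% lower). The zeros held at an unadjusted p under 0.05, with 0 members lower in each. In Kasumi-1 only PALB2, FANCF and FANCD2 were higher and MSH6 lower (21.2% of all tested rows higher and 16.5% lower), and the calls of FANCF and MSH6 ended without some single library. In NCI-H1299 the gap was 1.85 ± 0.25, adjusted p = 4.27e-05 for RAD54L, 1.77 ± 0.23 for RAD51AP1 and 1.63 ± 0.10 for FANCD2. ATM was the 1 member lower with ABBV-744 in NCI-H1299 (-0.46 ± 0.15, adjusted p = 0.0306), a call lost without any 1 ABBV-744 or ABBV-075 library of that line (adjusted p = 0.0665 to 0.169). In Kasumi-1 the differences that missed the threshold included CHEK1 at 0.19 (95% interval -0.07 to 0.45) and FANCA at 0.07 (95% interval -0.27 to 0.41).

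Whether lines responded differently to ABBV-075 was tested on the difference of their changes. SKM-1 had a lower response than Kasumi-1 at 18 members and a higher one at 1 (12.2% of all tested rows lower in SKM-1 and 18.7% higher). MV-4-11 had a lower response than Kasumi-1 at 9 members and a higher one at 2 (10.5% of all tested rows lower and 16.7% higher). SKM-1 minus MV-4-11 gave 5 lower and 1 higher (13.6% of all tested rows lower and 15.6% higher), and 13 lower and 5 higher without SKM-1 DMSO replicate 1. RAD51AP1 differed by -1.86 ± 0.33 for SKM-1 minus Kasumi-1 and -1.63 ± 0.33 for MV-4-11 minus Kasumi-1 (adjusted p = 0.000892 and 0.00205). EXO1 (-1.46 ± 0.16 and -1.06 ± 0.16) and MRE11A (-1.31 ± 0.25 and -1.24 ± 0.25) were also called in both. FANCD2 gave -0.31 (95% interval -0.61 to -0.02) and -0.14 (95% interval -0.44 to 0.15), and neither was called. PARP1 differed between SKM-1 and MV-4-11 by -1.32 ± 0.15, adjusted p = 1.17e-05. BRCA2 differed by -1.61 ± 0.36 between SKM-1 and MV-4-11, and by -1.02 without SKM-1 DMSO replicate 2 (adjusted p = 0.00264). Of the 18 members lower in SKM-1 than in Kasumi-1, BRCA1, RBBP8, CHEK1, CHEK2, FANCE, FANCM and FANCI lost the call without some single library, as did FANCF, the 1 higher. Without SKM-1 DMSO replicate 2, BRCA2 was at -1.16 (against -1.75 with all libraries), RBBP8 at -0.86 (-1.48) and BRCA1 at -0.43 (-0.78). The count was 12 without Kasumi-1 ABBV-075 replicate 2, whose pair also differed more than most (SD of the log2 difference 0.47), and 21 without SKM-1 DMSO replicate 1.

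**Figure D4:**
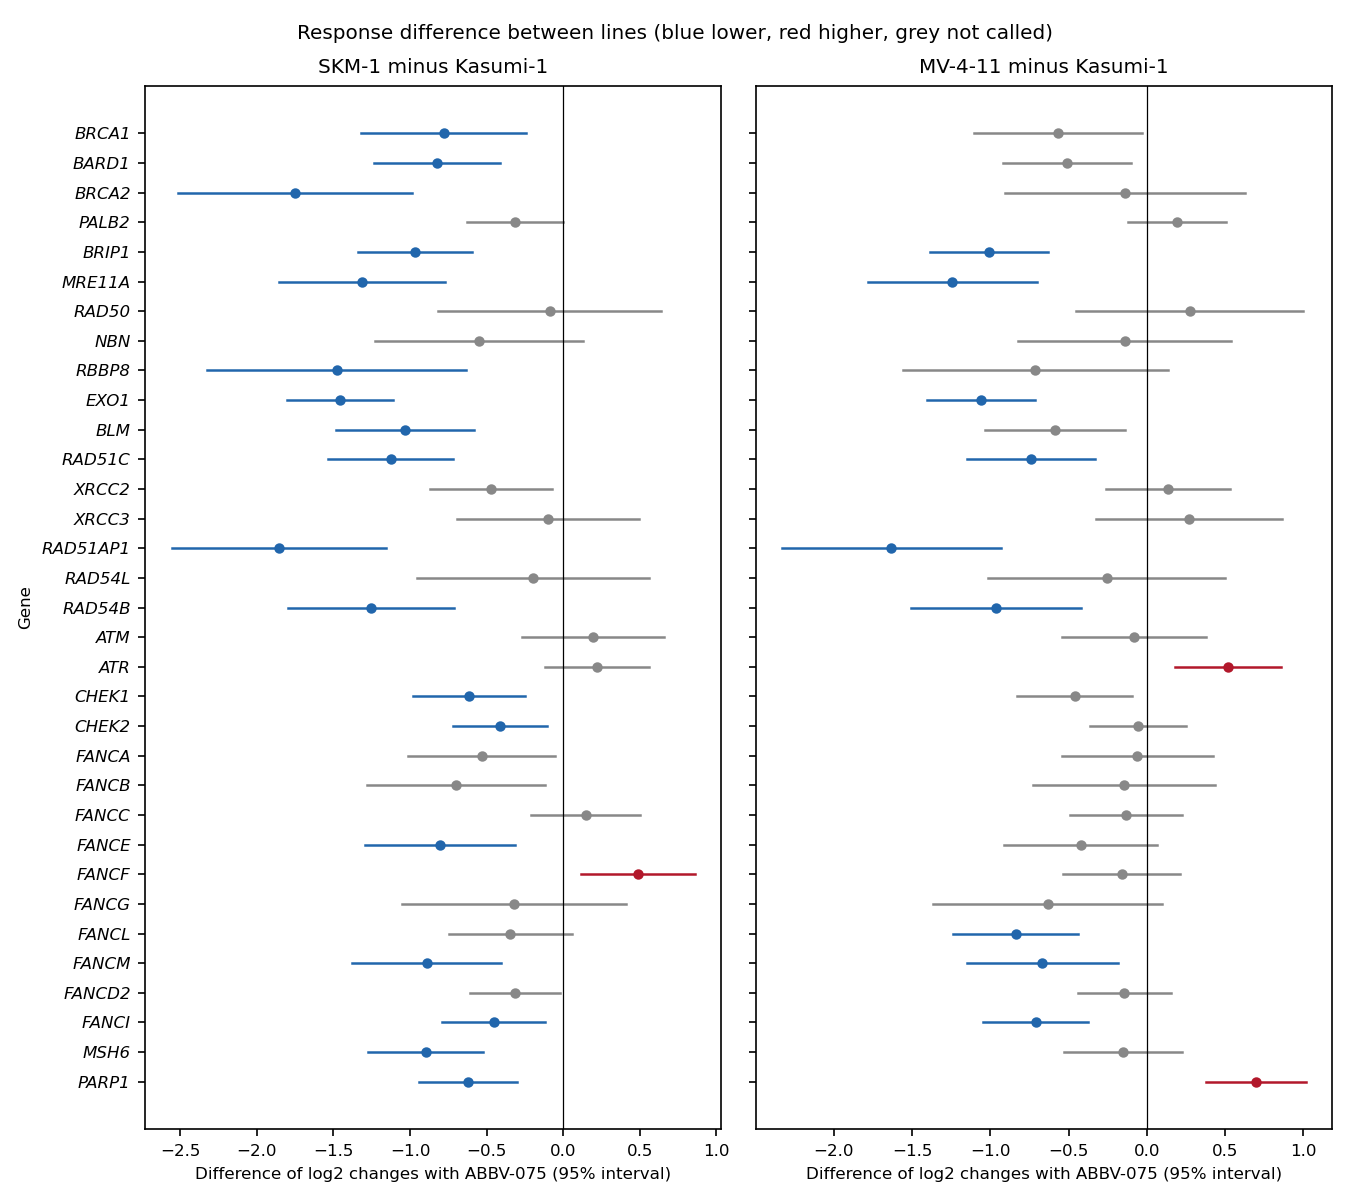
Points are the difference in log2 change with ABBV-075 between lines (x axis, bars 95% intervals) for each gene (y axis), SKM-1 minus Kasumi-1 at left and MV-4-11 minus Kasumi-1 at right, with called differences in blue (lower) and red (higher) and others in grey. At left 18 genes are blue and 1 is red, and at right 9 are blue and 2 are red.

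Between the AML mean and NCI-H1299 the ABBV-075 responses of most members did not differ beyond the threshold: 2 of 32 were called higher and 2 lower (10.5% of all tested rows higher and 8% lower), against 6 and 6 without SKM-1 DMSO replicate 1. FANCD2 and FANCI fell less in the leukaemia lines, by 1.01 ± 0.11 and 0.60 ± 0.13 (adjusted p = 1.77e-05 and 0.00396). PALB2 fell further in the AML mean (-0.39 ± 0.12, adjusted p = 0.0346) and the ATM response was lower in the AML mean (-0.56 ± 0.18, adjusted p = 0.0394). Both of these calls ended without several of the single libraries, among them any 1 of the NCI-H1299 ABBV-075 and DMSO libraries (adjusted p = 0.086 to 0.154 for PALB2 and 0.0811 to 0.173 for ATM). For ABBV-744 limma called 0 members different in either direction (0.305% of all tested rows higher and 0.265% lower), and 0 members passed an unadjusted p under 0.05.

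Other repair genes, listed by pathway, were called in both directions. Their counts stand beside the 34.4% of all tested rows lower and 33.5% higher in the AML mean, and the 26.5% lower and 20.6% higher in NCI-H1299, and a count near these shares is no result about its list. Of 17 tested genes of end resection and strand exchange outside the set, 7 were higher and 6 lower with ABBV-075 in the AML mean, near the share of all rows lower, and 2 higher and 8 lower in NCI-H1299. RAD51D, which works with XRCC2, fell in the AML mean (-1.71 ± 0.08, adjusted p = 5.39e-11), while the helicase HELQ rose in both (0.74 and 0.64). Of the other Fanconi and crosslink genes, 11 of 14 fell and 1 rose in the AML mean, and 7 of 15 fell and 2 rose in NCI-H1299, where UBE2T, the ubiquitin donor of the core complex, changed by -1.56 ± 0.14, adjusted p = 3.16e-07 and the polymerase POLN rose by 1.25. Junction processing gave 7 falls and 3 rises of 13 in the AML mean, with RMI2 at -1.29 and the nuclease scaffold SLX4 at 0.92. Damage signalling gave 11 falls and 4 rises of 23, with the fork protein TIPIN at -1.60. End joining, the rival route of break repair, gave 12 falls and 3 rises of 17, with the ligase partner XRCC4 at -1.20 and APLF at 1.14. In NCI-H1299 junction processing gave 4 falls and 1 rise of 14, damage signalling 6 falls and 2 rises of 23, both near the share of all rows lower, and end joining 8 falls and 1 rise of 17. In mismatch repair 5 of 7 fell in the AML mean, and MSH3 rose (0.41), with 3 falls and 2 rises of 7 in NCI-H1299.

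Most S phase genes were lower with ABBV-075 too. Of 20, 17 were called lower in the AML mean (median -1.53) and 17 in NCI-H1299 (median -1.39), among them the replicative helicase subunit MCM5 (-2.25 and -2.22). By line the number lower was 19 in SKM-1, 18 in MV-4-11 and 16 in Kasumi-1, against 29.2%, 22.1% and 32.6% of all tested rows. Kasumi-1 was also the line with the fewest repair genes called lower, and a link between the lists was not tested. G2 and mitosis genes did not follow one order. In NCI-H1299 19 of 20 were lower (median -1.56, with 26.5% of all tested rows lower). In Kasumi-1 9 were higher and 0 lower (median 0.36, with 24.7% of all tested rows higher and 32.6% lower). In the AML mean 7 were higher and 5 lower (median 0.09), near or below the 33.5% and 34.4% of all tested rows. With ABBV-744, 4 of 20 S phase genes were lower and 2 higher in SKM-1 (12.5% and 14.9% of all tested rows). The counts were 0 lower and 1 higher in MV-4-11 (6.75% and 4.61% of all tested rows) and 12 lower and 0 higher in Kasumi-1 (15% and 8.69%). In NCI-H1299 they were 0 either way (3.95% lower and 1.4% higher). The part of cell cycle phase in the repair genes' changes was not tested.

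**Figure D5:**
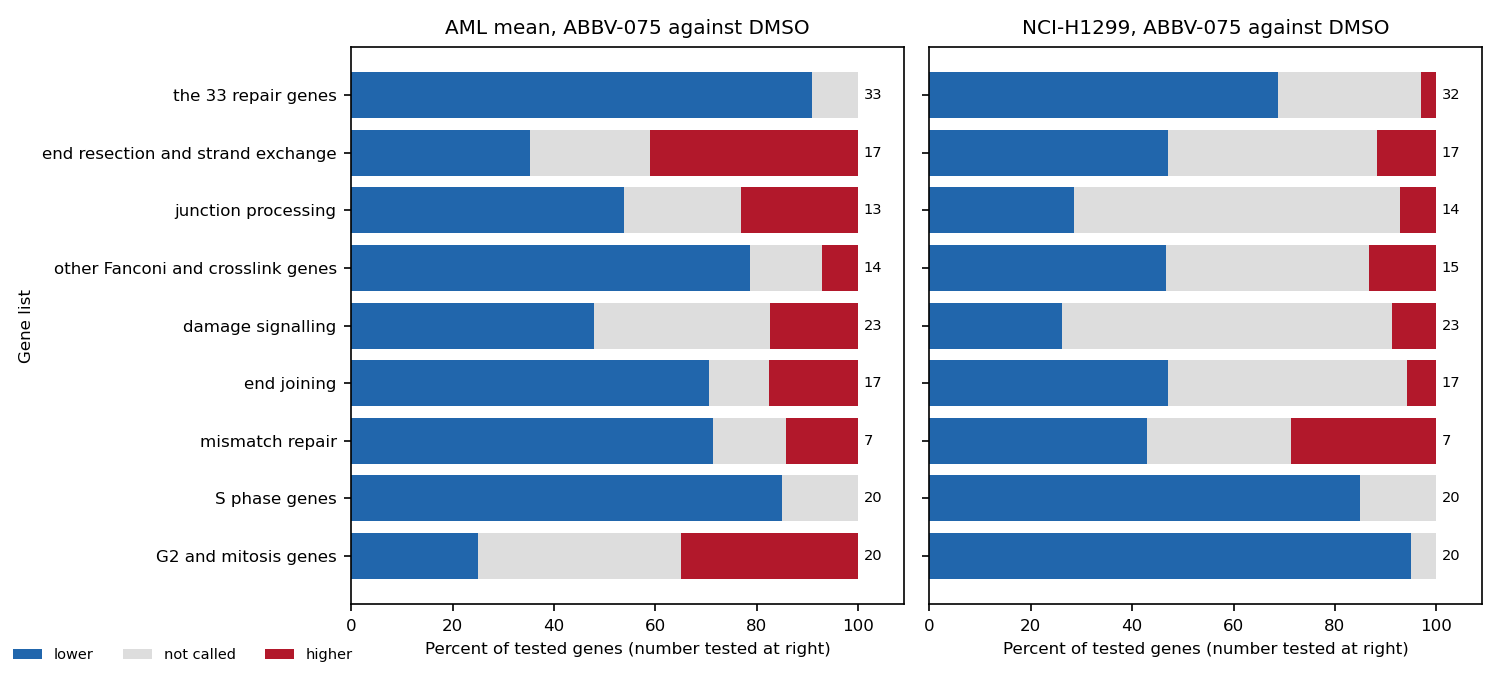
Bars give the percentage of tested genes of each list (y axis) called lower (blue), not called (grey) or higher (red) with ABBV-075, in the AML mean at left and NCI-H1299 at right, with the number tested beside each bar. The repair genes had 30 of 33 lower in the AML mean and 22 of 32 in NCI-H1299, and the G2 and mitosis list had 5 of 20 lower at left and 19 of 20 at right.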

How the data were processed

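One table of FPKM values, deposited by the authors, covers the 24 libraries, and all of its library columns matched a label. The submitters' processing notes list DESeq2 among the authors' tools, without a version or a word on what it did to the table. Which aligner, quantifier, genome build and annotation were used is not given in the sources used here. FPKM values are not counts, so depth is unknown and counting error could not be computed. Expression was set to log2(FPKM + 1). To be tested, a row needed 1 FPKM or more in 2 or more libraries of each line compared. limma 3.58.1 in R 4.3.3 (eBayes with trend and robust, statmod 1.5.0) fitted 12 group means, leaving 12 residual degrees of freedom. Tests were two-sided with Benjamini-Hochberg adjustment within each of 20 comparisons. An exact permutation test of 2 libraries against 2 has a smallest p of 0.333, and limma calls use the spread pooled over groups and rows. The 3 lines of the AML mean were taken as fixed. The fit was tested on simulated data. All 33 members may be named, and from each other list up to 2 called genes with the largest rise, up to 2 with the largest fall and up to 2 uncalled genes with the smallest change, in the AML mean and in NCI-H1299 with ABBV-075. MYC, HEXIM1 and SERPINI1 served as checks. Members, lists and tests were chosen with earlier results of these data known. Values of some listed genes are not reported here. The list symbols SLX1B, FAAP24, FAAP100 and FAAP20 were not found. Exon sharing used GENCODE v29. Alternatives covered the pseudocount, the filter, 3 scalings, the variance model, the lines in the fit and each library left out. Plots used matplotlib 3.10.9 in Python 3.11.15.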

Additional observations from a re-analysis of the deposited data

Results flagged for a closer look

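The following members had ABBV-075 responses that differed between lines in limma, at an adjusted p under 0.05 for the difference of the log2 changes itself. A negative value means a lower response in the first-named line. For SKM-1 minus Kasumi-1 the differences were negative for BRCA1 (-0.78), BARD1 (-0.82), BRCA2 (-1.75), BRIP1 (-0.97), MRE11A (-1.31), RBBP8 (-1.48), EXO1 (-1.46), BLM (-1.03), RAD51C (-1.12), RAD51AP1 (-1.86), RAD54B (-1.26), CHEK1 (-0.61), CHEK2 (-0.42), FANCE (-0.81), FANCM (-0.89), FANCI (-0.45), MSH6 (-0.90) and PARP1 (-0.62), and positive for FANCF (0.49). For MV-4-11 minus Kasumi-1 they were negative for BRIP1 (-1.01), MRE11A (-1.24), EXO1 (-1.06), RAD51C (-0.74), RAD51AP1 (-1.63), RAD54B (-0.96), FANCL (-0.84), FANCM (-0.67) and FANCI (-0.71), and positive for ATR (0.52) and PARP1 (0.70). For SKM-1 minus MV-4-11 they were negative for BRCA2 (-1.61), PALB2 (-0.51), XRCC2 (-0.61), MSH6 (-0.74) and PARP1 (-1.32), and positive for FANCF (0.65). For the AML mean minus NCI-H1299 they were negative for PALB2 (-0.39) and ATM (-0.56), and positive for FANCD2 (1.01) and FANCI (0.60). The SKM-1 DMSO libraries and the Kasumi-1 ABBV-075 libraries, the pairs with the widest spread, enter the SKM-1 and Kasumi-1 differences, and their part was not tested beyond leaving each library out.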

How the results depend on the processing

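No paired analysis was possible because the replicate numbers follow accession order and pair no libraries. No called value reversed under any alternative. Counts of members called that moved by more than 1.5 times were as follows, and the cause was not tested. With only the lines of the comparison in the fit, which leaves fewer samples, ABBV-744 against DMSO gave 0 lower in SKM-1, 2 in Kasumi-1 and 3 in NCI-H1299. In that fit ABBV-744 against ABBV-075 gave 16 higher in SKM-1, 1 higher and 0 lower in Kasumi-1 and 2 lower in NCI-H1299, and ABBV-075 gave 0 higher in Kasumi-1. Its line differences gave 0 higher and 3 lower for SKM-1 minus MV-4-11, 0 higher and 8 lower for SKM-1 minus Kasumi-1 and 1 higher for MV-4-11 minus Kasumi-1. With equal sums without mitochondrial transcripts, counts were 1 higher with ABBV-744 in MV-4-11, 6 lower with ABBV-744 than ABBV-075 in Kasumi-1, 9 lower for SKM-1 minus MV-4-11 and 0 higher for SKM-1 minus Kasumi-1. Median of ratios and quantile scaling each gave 2 lower for ABBV-744 against ABBV-075 in Kasumi-1, 0 higher for SKM-1 minus Kasumi-1 and 1 higher for MV-4-11 minus Kasumi-1, and quantile scaling gave 0 lower for the AML mean minus NCI-H1299. Plain eBayes gave 2 lower for ABBV-744 against ABBV-075 in Kasumi-1. A pseudocount of 0.1 gave 1 lower for the AML mean minus NCI-H1299 and 0 higher for SKM-1 minus Kasumi-1, and no filter also gave 0 higher there.

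Leaving out 1 library gave ranges, for ABBV-744 against DMSO, of 0 to 4 higher and 0 to 10 lower in SKM-1, 5 to 12 lower in Kasumi-1, 0 to 1 lower in NCI-H1299 and 7 to 14 lower in the AML mean. For ABBV-075 against DMSO the number higher ranged from 0 to 1 in MV-4-11, 0 to 3 in Kasumi-1 and 0 to 1 in NCI-H1299. For ABBV-744 against ABBV-075 the number lower ranged from 0 to 4 in Kasumi-1 and 0 to 1 in NCI-H1299. The line differences ranged from 2 to 6 higher and 0 to 6 lower for the AML mean minus NCI-H1299, 1 to 5 higher and 3 to 13 lower for SKM-1 minus MV-4-11, 0 to 1 higher for SKM-1 minus Kasumi-1 and 1 to 2 higher for MV-4-11 minus Kasumi-1. The upper ends of SKM-1 minus MV-4-11, 5 and 13, and of the AML mean minus NCI-H1299, 6 and 6, came without SKM-1 DMSO replicate 1. With 1 library left in a group, that library was assumed to vary like the other groups. Other scalings moved the median of all rows by over 0.1, within -0.15 (ABBV-744 in SKM-1, without mitochondrial transcripts) to 0.13 (ABBV-075 in Kasumi-1, quantile), in some of the comparisons, and the members' median stayed below 0 for ABBV-075 against DMSO in SKM-1 (-1.08 without mitochondrial transcripts) and Kasumi-1 (-0.15, quantile). With 2 libraries a group and FPKM only, depth cannot be weighed.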
